A study of Mus musculus with 10 samples.

Results

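Basement membrane genes were described in cultured mouse lung fibroblasts with and without the collagen receptor gene Mrc2. The set holds 32 of the 54532 genes in the count table, chosen by name: collagen IV and 3 other basement membrane collagens, laminin chains, nidogens, the proteoglycans perlecan (Hspg2), agrin and linked proteins. All 32 were found, and 26 passed the filter on low counts and were tested. The study compared 5 libraries labelled Mrc2 knockout (Mrc2 KO) with 5 wild-type (WT) libraries of primary lung fibroblasts. All were grown at baseline, with no treatment named, in DMEM with 10% fetal bovine serum, and all 10 carried the same batch label. The sources used here do not give the mouse strain or age, the knockout allele, the passage or how the fibroblasts were isolated. The titles number them as biological replicates without saying whether each came from its own animal, so p-values measure the spread between these samples, which may be technical. RNA was selected by its poly(A) tail and sequenced on a NovaSeq.

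Basement membranes are thin sheets of matrix under epithelia and endothelia and around muscle, fat and nerve cells. Laminins, each a trimer of an alpha, a beta and a gamma chain, assemble first on cell surface receptors such as integrins and dystroglycan. Collagen IV forms a second network that is held together by covalent bonds, and nidogens and perlecan link both networks. Fibroblasts of the lung interstitium contribute some of these proteins, such as collagen IV and nidogens. MRC2 is an endocytic receptor that takes up collagen for breakdown in lysosomes.

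Total counts per library ranged from 19603933 to 29944615, so that 3 counts corresponded to 0.100 to 0.153 CPM, where CPM stands for counts scaled by library size to a common total. Mrc2 itself was at 242 ± 30.4 CPM in Mrc2 KO and 843 ± 176 CPM in WT (SD, n = 5 each, edgeR adjusted p = 0.00293), with no overlap, so all 10 libraries matched their labels although some Mrc2 transcript remained. Fibroblast markers were abundant, with a summed level of 19602 to 37803 CPM in Mrc2 KO and 12574 to 24036 CPM in WT over 8 genes, although Lum and Dcn averaged only 7.77 and 106 CPM in Mrc2 KO and 13.4 and 144 CPM in WT. Leukocyte markers were also present, at 2574 to 5742 CPM in Mrc2 KO and 2162 to 10776 CPM in WT over 6 genes. Mesothelial markers summed to 90.4 to 288 CPM in Mrc2 KO and 112 to 614 CPM in WT over 6 genes. Endothelial markers were low (6 genes, 4.09 to 10.5 CPM in Mrc2 KO, 3.16 to 7.97 CPM in WT). The 9 epithelial markers summed to 12.2 to 38.8 CPM in Mrc2 KO and 14.9 to 67.9 CPM in WT. Among them Krt8, Krt18 and Krt19 averaged 6.94, 6.36 and 13.6 CPM in Mrc2 KO and 13.1, 13.0 and 15.8 CPM in WT. Cldn18 was at 0, and Epcam, Sftpc, Sftpb and Nkx2-1 were at no more than 4 counts in every library. Schwann cell markers (4 genes) summed to at most 1.77 CPM in any library, and smooth muscle and pericyte markers (6 genes) summed to 1542 to 2175 CPM in Mrc2 KO and 841 to 2371 CPM in WT.

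Most of the tested basement membrane genes had higher mean levels in Mrc2 KO, but no member passed the test over all genes. On the log2 scale, Mrc2 KO over WT lay above 0 for 22 of the 26 tested members (84.6%), against 48.4% of all 14360 tested genes, and its median was 0.46, against -0.01 over all tested genes. The members were chosen by name but with earlier results of these data known, so this contrast is a description only. By edgeR's quasi-likelihood test with Benjamini-Hochberg adjustment 0 members were called, where 0.0139% of all genes were, and the smallest adjusted p among members was 0.234, for Pxdn. Before adjustment 5 members with higher levels in Mrc2 KO (19.2%) had a p under 0.05, against 7.19% of all genes, and 2 with lower levels (7.69%), against 6.1%. The share of lower members was near the background. For 0 of 26 members were the groups free of overlap, against 2.05% of all genes, 0.961% with higher and 1.09% with lower levels in Mrc2 KO. With no filter on low counts all 32 members could be fitted, and 27 lay above 0. In bulk RNA, fewer cells of a type and less RNA per cell cannot be told apart.

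Replicates 5 and 1 of Mrc2 KO marked the ends of their group. Replicate 5 was the lowest of the Mrc2 KO libraries for 22 of the 26 members, and lay below the WT mean for 22. Replicate 1 was the highest of all 10 libraries for 13 of the 26 members, and it also had the highest summed endothelial markers (10.5 CPM), whose part in these values was not tested. A member score, the mean of log2 CPM after centring each tested member over the 10 libraries, was 0.53, 0.30, 0.33, 0.31 and -0.54 in Mrc2 KO replicates 1 to 5 and -0.36, 0.04, -0.31, 0.17 and -0.49 in WT replicates 1 to 5. Mrc2 KO replicates 1 to 4 thus lay above every WT library and replicate 5 below every WT library. Without replicate 5, 5 of the 26 members (19.2%) separated the groups, against 10.4% of all genes: Pxdn, Agrn, Lama5, Nid1 and Dag1, all higher in Mrc2 KO. Since the removed library was the one with the lowest score, this is a description only.

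**Figure D1:**
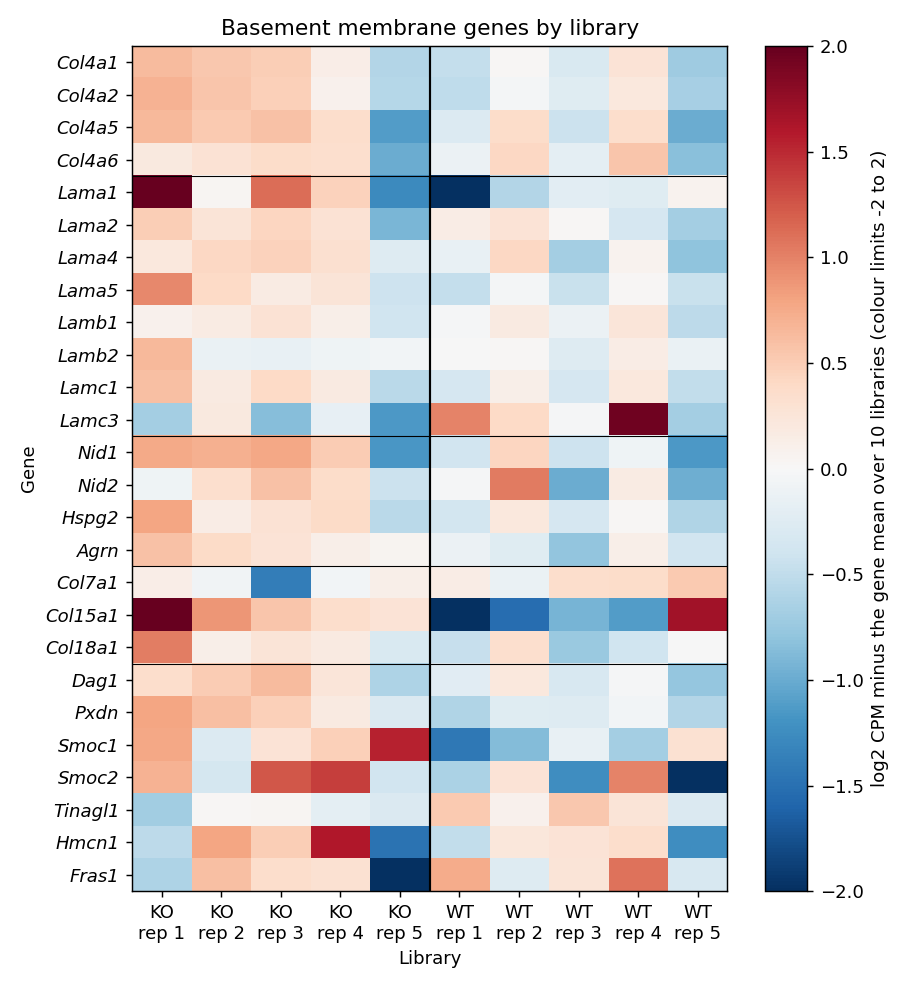
Heat map of the 26 tested members (rows, grouped by role) in the 10 libraries (columns, Mrc2 KO left of WT). Colour is log2 CPM minus the gene's mean over all libraries. Most members are high in Mrc2 KO replicates 1 to 4 and low in Mrc2 KO replicate 5 and in WT replicates 1, 3 and 5.

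The order of the libraries by this score resembled their order by a length trend. The slope of log2 CPM deviation on log2 gene length over all tested genes was 0.14, 0.08, 0.10, 0.06 and -0.16 per doubling of length in Mrc2 KO replicates 1 to 5, and -0.06, 0.09, -0.15, -0.0033 and -0.09 in WT replicates 1 to 5. Many basement membrane genes are long. With this trend removed from each library 19 of the 26 members lay above 0, with a median of 0.34. The same kind of score over the 8 fibroblast markers, of which 6 lay above 0 in Mrc2 KO over WT and 2 below, was lowest in WT replicates 5 and 3 and in Mrc2 KO replicate 5 (-0.64, -0.44 and -0.39). The part of fibroblast content in the members' values was not tested.

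Upstream sequence is shown for 4 of the 7 members with an unadjusted p under 0.05. RefSeq start windows of GRCm38.p6 matched 22 of the 32 members by symbol. Shown is 1 window each for Pxdn, Agrn, Lama5 and Tinagl1, with no annotated GENCODE M21 exon in the 250 bases before the start. The first 3 are for genes with higher levels in Mrc2 KO and the last for a gene with lower levels. Capitals mark matches on either strand to the GC box GGGCGG, to CCAAT or to TATAAA, and matches that touch or overlap run together. The windows lie at chr12:29937786-29938035, plus strand, at chr4:156197489-156197738, minus strand, at chr2:180225860-180226109, minus strand and at chr4:130175123-130175372, minus strand.
Pxdn: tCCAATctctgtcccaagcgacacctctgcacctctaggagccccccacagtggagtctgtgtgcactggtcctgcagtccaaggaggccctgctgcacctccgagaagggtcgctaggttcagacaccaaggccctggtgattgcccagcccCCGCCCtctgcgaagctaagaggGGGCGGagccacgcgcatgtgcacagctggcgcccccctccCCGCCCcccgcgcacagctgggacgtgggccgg
Agrn: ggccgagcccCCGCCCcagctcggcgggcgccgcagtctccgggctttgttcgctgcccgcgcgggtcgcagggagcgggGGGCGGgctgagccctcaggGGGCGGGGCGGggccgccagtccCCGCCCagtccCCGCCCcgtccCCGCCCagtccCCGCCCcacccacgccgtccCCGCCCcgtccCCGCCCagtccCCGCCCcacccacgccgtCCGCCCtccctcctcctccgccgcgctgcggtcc
Lama5: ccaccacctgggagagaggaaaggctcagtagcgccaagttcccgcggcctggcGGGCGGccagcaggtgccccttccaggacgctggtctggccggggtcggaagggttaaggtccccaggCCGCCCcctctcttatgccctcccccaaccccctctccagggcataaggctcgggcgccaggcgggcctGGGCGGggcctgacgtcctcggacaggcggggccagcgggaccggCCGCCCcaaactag
Tinagl1: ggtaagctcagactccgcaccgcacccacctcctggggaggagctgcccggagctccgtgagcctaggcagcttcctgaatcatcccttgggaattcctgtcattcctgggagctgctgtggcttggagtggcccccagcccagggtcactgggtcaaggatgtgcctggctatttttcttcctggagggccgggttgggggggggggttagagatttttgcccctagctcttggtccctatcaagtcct
The GC box matched 3 times upstream of Pxdn, 12 times upstream of Agrn, 4 times upstream of Lama5 and 0 times upstream of Tinagl1. At least 1 match was held by 32.7% of 32851 RefSeq start windows, which include windows that overlap exons. CCAAT matched once, upstream of Pxdn, and is found in 33.8% of windows. TATAAA, found in 12.4%, had 0 matches in these 4 windows. A second RefSeq start of Tinagl1, whose window overlaps an annotated exon, had 4 GC box matches. A second start of Agrn (window at chr4:156186260-156186509, minus strand) had 2. Its window also holds no annotated exon but is not shown. The 4 windows shown held 68.0%, 83.6%, 72.4% and 60.8% G and C in the order shown. The window of Pxdn lies inside the gene as the count table bounds it, and the other 3 lie just outside their genes.

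Collagen IV made up the most abundant transcripts of the set. The Col4a1 and Col4a2 chains, which join into the form of collagen IV found in nearly all basement membranes, reached 437 ± 128 RPKM and 358 ± 109 RPKM in Mrc2 KO and 309 ± 85.7 RPKM and 247 ± 60.7 RPKM in WT (CPM per kilobase of gene length, a scale on which genes can be compared; SD, n = 5 each). Col4a1 (ENSMUSG00000031502, chr8:11198423-11312826, minus strand, mm10) was at 4091, 3848, 3710.2, 2899 and 1756 CPM in Mrc2 KO replicates 1 to 5, against 1894, 2684, 2148, 3206 and 1607 CPM in WT replicates 1 to 5. Replicates 1 to 3 of Mrc2 KO exceeded every WT library, and replicate 5 lay below all but 1. The log2 fold change was 0.50 (standard error 0.25, 95% interval -0.06 to 1.05, adjusted p = 0.411 by edgeR). Col4a2 (ENSMUSG00000031503, chr8:11312805-11449287, plus strand) was at 3075, 2806, 2655, 2021 and 1282 CPM in Mrc2 KO and 1333, 1844, 1611, 2197 and 1194 CPM in WT, with the same order of libraries in Mrc2 KO. Its log2 fold change was 0.53 (standard error 0.25, adjusted p = 0.38 by edgeR).

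The genes for these chains lie head to head, and their annotated RefSeq starts overlap by 22 bases. The shared stretch is shown because these are the most abundant members and their levels varied together over the libraries. It was taken from RefSeq, GRCm38.p6, chr8:11312805-11312826, plus strand, with a match to the GC box GGGCGG in capitals.
Col4a1 and Col4a2 shared start: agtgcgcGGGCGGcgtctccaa
The log2 ratio of Col4a2 to Col4a1 per length varied little, from -0.35 to -0.24 over the Mrc2 KO libraries and from -0.37 to -0.24 over the WT libraries. It averaged -0.29 ± 0.04 in Mrc2 KO and -0.31 ± 0.06 in WT (SD, n = 5 each), with an exact two-sided permutation p of 0.508 and an adjusted p of 0.762 over the 6 ratios examined, where the smallest p this design allows is 0.00794. Col4a1 itself spanned 1607 to 4091 CPM over the 10 libraries.

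The other collagen IV genes were less abundant. Col4a5 (ENSMUSG00000031274, chrX:141475385-141689234, plus strand), whose chain partners those of Col4a3 and Col4a4 or that of Col4a6, had 85.0 to 289 CPM in Mrc2 KO and 92.9 to 238 CPM in WT, and its lowest library was Mrc2 KO replicate 5. Its log2 fold change was 0.43 (standard error 0.33, adjusted p = 0.552 by edgeR), and 0.26 without WT replicate 5. Its log2 ratio to Col4a1 averaged -3.73 ± 0.29 in Mrc2 KO and -3.64 ± 0.25 in WT (exact two-sided permutation p = 0.643, adjusted p = 0.771). Col4a6, its head-to-head neighbour on the X chromosome, had 30.4 ± 9.29 CPM in Mrc2 KO and 28.9 ± 10.4 CPM in WT (log2 fold change 0.07, a value that was -0.064 with the length trend removed and -0.096 without WT replicate 5). Col4a3 and Col4a4, the chains of kidney and alveolar basement membrane collagen, had 2 to 16 and 2 to 28 counts per library, too few to be tested. Of the summed RPKM of the 6 collagen IV genes, Col4a1 and Col4a2 together held most, at 52.6% ± 0.538 and 43.0% ± 0.905 in Mrc2 KO and 52.7% ± 0.646 and 42.4% ± 1.35 in WT (SD, n = 5 each).

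**Figure D2:**
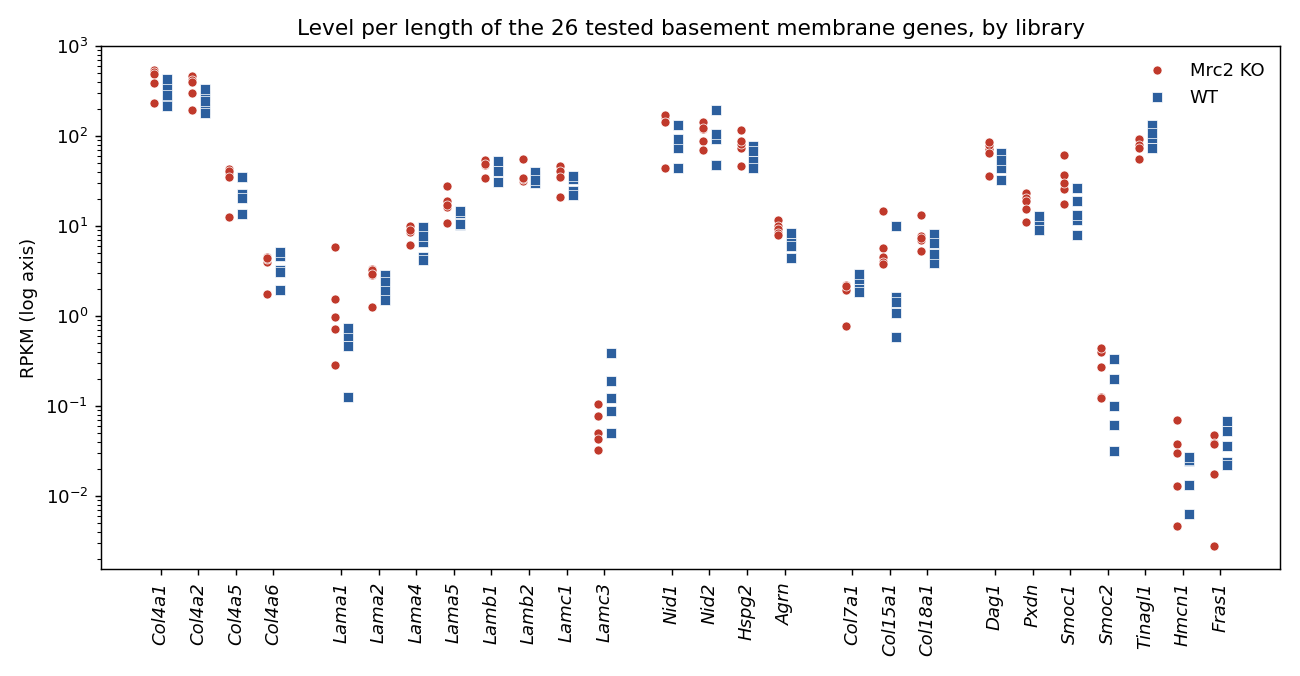
Level of each tested member in RPKM on a log axis, with 1 point per library (Mrc2 KO left, WT right). Col4a1 and Col4a2 lie above 100 RPKM in every library, and Lamc3, Smoc2, Hmcn1 and Fras1 lie below 1 RPKM.

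Among laminin alpha chains, Lama5 took the largest part. Lama5 (ENSMUSG00000015647, chr2:180176373-180225859, minus strand), the alpha chain of most adult epithelial and vascular basement membranes, was at 320.3, 215, 184, 195 and 123 CPM in Mrc2 KO and 117, 159.8, 120.1, 167 and 121 CPM in WT. Replicates 1 to 4 of Mrc2 KO exceeded every WT library, while replicate 5 lay within the WT range. On the log2 scale the difference was 0.60 (standard error 0.22, 95% interval 0.12 to 1.08, adjusted p = 0.343 by edgeR), and it was 0.38 both without Mrc2 KO replicate 1 and with the length trend removed. Lama4, the alpha chain of endothelial and mesenchymal laminins, had 106 ± 19.2 CPM in Mrc2 KO and 79.7 ± 27.8 CPM in WT (log2 fold change 0.41, standard error 0.23, adjusted p = 0.436 by edgeR, and 0.23 with the length trend removed). For Lama2, the chain lost in a congenital muscular dystrophy, the value was 0.27 (standard error 0.25, adjusted p = 0.63 by edgeR), and it was -0.034 with the length trend removed, 0.13 without WT replicate 5, 0.17 without Mrc2 KO replicate 1 and 0.44 without Mrc2 KO replicate 5.

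Lama1 had the largest log2 fold change of all members, and it rested on 1 library. Lama1 (ENSMUSG00000032796, chr17:67697259-67822647, plus strand), an alpha chain best known from embryonic basement membranes, was at 57.3, 7.04, 15.1, 9.48 and 2.79 CPM in Mrc2 KO and 1.21, 4.53, 5.95, 5.79 and 7.201 CPM in WT. Replicate 1 of Mrc2 KO stood far above all others, and replicates 2 and 5 lay within the WT range. Mrc2 KO over WT came to a log2 fold change of 1.90 (standard error 0.71, adjusted p = 0.343 by edgeR), and 0.79 without Mrc2 KO replicate 1 (adjusted p = 0.659). In the summed RPKM of the 5 alpha chains, Lama1 made up 12.9% in Mrc2 KO replicate 1 and at most 4.35% in any WT library. The shares of Lama5 were 51.9 to 61.2% in Mrc2 KO and 51.6 to 62.0% in WT, and those of Lama4 18.5 to 33.2% in Mrc2 KO and 24.7 to 36.0% in WT. The log2 ratio of Lama4 to Lama2 averaged 1.74 ± 0.34 in Mrc2 KO and 1.51 ± 0.42 in WT (SD, n = 5 each, exact two-sided permutation p = 0.357, adjusted p = 0.714). Lama3, an alpha chain of skin and airway epithelium, had at most 10 counts in any library and was not tested.

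None of the abundant beta and gamma chain genes had an unadjusted p under 0.05. Lamb1, the common beta chain of mesenchymal and epithelial laminins, had 465.9 ± 77.4 CPM in Mrc2 KO and 435 ± 85.1 CPM in WT, and Lamb2, its counterpart at kidney filters and nerve-muscle synapses, 229.9 ± 62.5 CPM in Mrc2 KO and 212 ± 22.4 CPM in WT (SD, n = 5 each). Their log2 fold changes were 0.10 (95% interval -0.27 to 0.47) for Lamb1 and 0.11 (95% interval -0.24 to 0.47) for Lamb2. These values were -0.073 for Lamb1 with the length trend removed and -0.075 for Lamb2 without Mrc2 KO replicate 1. The ratio of Lamb2 to Lamb1 on the log2 scale averaged -0.33 ± 0.44 in Mrc2 KO and -0.31 ± 0.23 in WT (exact two-sided permutation p = 0.944, adjusted p = 0.944). Lamc1, the gamma chain of most laminins, had 297 ± 79.0 CPM in Mrc2 KO and 232 ± 50.7 CPM in WT (log2 fold change 0.36, 95% interval -0.10 to 0.81, adjusted p = 0.453 by edgeR). This value was 0.23 without Mrc2 KO replicate 1 and 0.21 with the length trend removed.

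Lamc3, a rare gamma chain, was 1 of the 2 members with lower levels in Mrc2 KO and an unadjusted p under 0.05. It was at 0.308, 0.637, 0.265, 0.474 and 0.200 CPM in Mrc2 KO and 1.17, 0.745, 0.536, 2.35 and 0.309 CPM in WT, which corresponds to 4 to 49 counts per library. All 5 Mrc2 KO libraries lay below the WT mean, yet the groups overlapped. The log2 fold change was -1.39 (standard error 0.54, adjusted p = 0.343 by edgeR), and -0.85 without WT replicate 4, the highest library. Lamc3 accounted for at most 1.06% of the gamma chain RPKM in any library. Lamb3, a beta chain of epithelial laminin, had at most 10 counts in any library and was not tested.

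**Figure D3:**
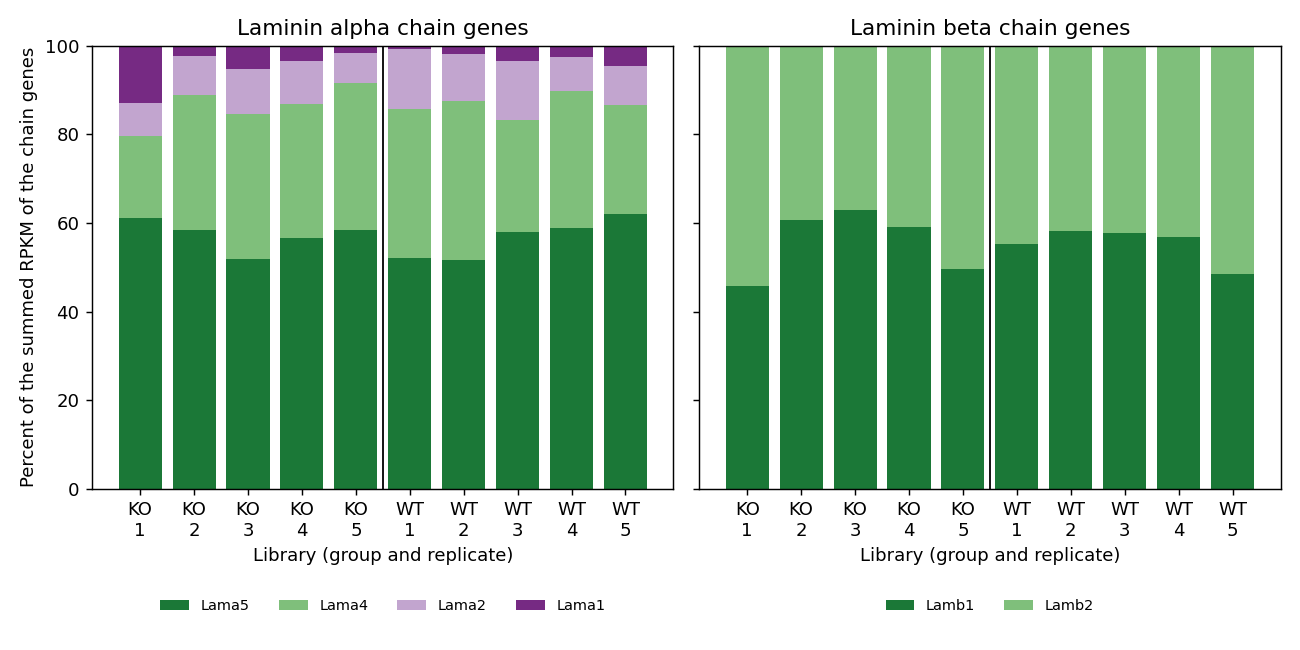
Percent of the summed RPKM of the laminin alpha chain genes (left) and beta chain genes (right) in each library, Mrc2 KO left of WT. Lama5 holds 51.6 to 62.0% of the alpha chains in all libraries, and Lama1 is visible mainly in Mrc2 KO replicate 1 (12.9%); Lama3 and Lamb3, under 0.2% each, are not drawn.

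Both nidogen genes were among the 6 most abundant members. Nid1 (ENSMUSG00000005397, chr13:13437551-13512269, plus strand), which bridges laminin and collagen IV, was at 1163, 1129.7, 1188, 987 and 309.5 CPM in Mrc2 KO and 533, 931, 519.8, 654 and 310.4 CPM in WT. The first 4 Mrc2 KO replicates exceeded every WT library, and replicate 5 lay just below the lowest WT library. Its log2 fold change was 0.70 (standard error 0.36, adjusted p = 0.411 by edgeR), and 0.91 without Mrc2 KO replicate 5 (adjusted p = 0.0617). Nid2 (ENSMUSG00000021806, chr14:19751265-19811787, plus strand), its relative, was at 460.1, 619.6, 739, 631 and 364 CPM in Mrc2 KO and 481, 1012, 246, 548 and 250.1 CPM in WT. The highest library of all was WT replicate 2, and the WT range enclosed every Mrc2 KO library. The log2 fold change of Nid2 was 0.15 (standard error 0.36, adjusted p = 0.863 by edgeR), with -0.034 without WT replicate 3, -0.033 without WT replicate 5 and 0.55 without WT replicate 2. Of its exonic bases 8.45% lie opposite the gene Rtraf, and without a stated strand setting reads there cannot be told apart. The log2 ratio of Nid2 to Nid1 averaged -0.24 ± 0.57 in Mrc2 KO and 0.09 ± 0.45 in WT (exact two-sided permutation p = 0.333, adjusted p = 0.714).

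Of the heparan sulfate proteoglycans, perlecan was far more abundant than agrin. Hspg2 (ENSMUSG00000028763, chr4:137468769-137570630, plus strand), the perlecan gene, was at 1659.7, 1064, 1180.2, 1257 and 659.5 CPM in Mrc2 KO and 747, 1111, 759, 981 and 632 CPM in WT. Replicates 1, 3 and 4 of Mrc2 KO exceeded every WT library, with a log2 fold change of 0.46 (standard error 0.23, adjusted p = 0.409 by edgeR) and values of 0.29 without Mrc2 KO replicate 1 and 0.21 with the length trend removed. Agrn (ENSMUSG00000041936, chr4:156165290-156197488, minus strand), best known for gathering acetylcholine receptors at the nerve-muscle synapse, was at 108, 93.8, 86.8, 78.0 and 74.3 CPM in Mrc2 KO and 66.3, 60.6, 41.4, 77.6 and 55.2 CPM in WT. Every Mrc2 KO library lay above the WT mean, and only WT replicate 4 reached into their range. On the log2 scale the difference was 0.55 (standard error 0.16, 95% interval 0.19 to 0.91, adjusted p = 0.276 by edgeR), and 0.39 with the length trend removed.

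Among the other collagens of the basement membrane zone the signs were mixed. Col18a1, whose C-terminal fragment is endostatin, had 57.2 ± 21.1 CPM in Mrc2 KO and 39.5 ± 11.9 CPM in WT (SD, n = 5 each; log2 fold change 0.53, standard error 0.25, adjusted p = 0.391 by edgeR, and 0.28 without Mrc2 KO replicate 1). Col15a1, a related collagen of the zone between basement membrane and interstitium, was at 92.5, 36.8, 29.1, 25.3 and 24.0 CPM in Mrc2 KO and 3.73, 6.87, 10.4, 9.15 and 64.1 CPM in WT. WT replicates 1 to 4 lay below every Mrc2 KO library, and WT replicate 5 lay above all Mrc2 KO libraries but replicate 1. Its log2 fold change of 1.14 (standard error 0.71, adjusted p = 0.474 by edgeR) was 2.45 without WT replicate 5 (adjusted p = 0.247) and 0.62 without Mrc2 KO replicate 1 (adjusted p = 0.798). WT replicate 5 was also the library with the highest summed leukocyte markers (10776 CPM). The next highest sum was in WT replicate 2 (6192 CPM), where Col15a1 was at 6.87 CPM. Mrc2 KO replicate 1, the highest library for Col15a1, had a sum of 3113 CPM. The part of leukocytes in the result was not tested. The log2 ratio of Col18a1 to Col15a1 averaged 0.46 ± 0.40 in Mrc2 KO and 1.65 ± 1.49 in WT (exact two-sided permutation p = 0.143, adjusted p = 0.714). Without WT replicate 5 the difference, Mrc2 KO minus WT, was -1.77 (exact permutation p = 0.00794, unadjusted and the smallest these libraries allow). Col7a1, which forms the anchoring fibrils of skin, had 18.6 ± 6.13 CPM in Mrc2 KO and 25.1 ± 4.18 CPM in WT (log2 fold change -0.43, standard error 0.25, adjusted p = 0.448 by edgeR). Replicate 3 of Mrc2 KO was lowest at 7.90 CPM, and the value was -0.24 without it.

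Pxdn had the smallest p of the set. Its product, peroxidasin, is the enzyme that forms the sulfilimine bonds joining collagen IV molecules. Pxdn (ENSMUSG00000020674, chr12:29937608-30017658, plus strand) was at 227, 199.5, 184, 149 and 108 CPM in Mrc2 KO and 86.6, 111, 111, 127 and 88.4 CPM in WT. Replicates 1 to 4 of Mrc2 KO exceeded every WT library, and replicate 5 lay above the WT mean. Mrc2 KO over WT came to a log2 fold change of 0.73 (standard error 0.19, 95% interval 0.31 to 1.15, adjusted p = 0.234 by edgeR), or 1.66 times the WT mean in CPM. Pxdn was the 1 member called by DESeq2 (adjusted p = 0.0348), which called 1.69% of all genes and 1.02% with higher levels in Mrc2 KO, and the 1 member called by edgeR without Mrc2 KO replicate 5 (adjusted p = 0.0407), where 1.39% of genes were called. With the length trend removed its log2 fold change was 0.54 (edgeR adjusted p = 0.223).

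**Figure D4:**
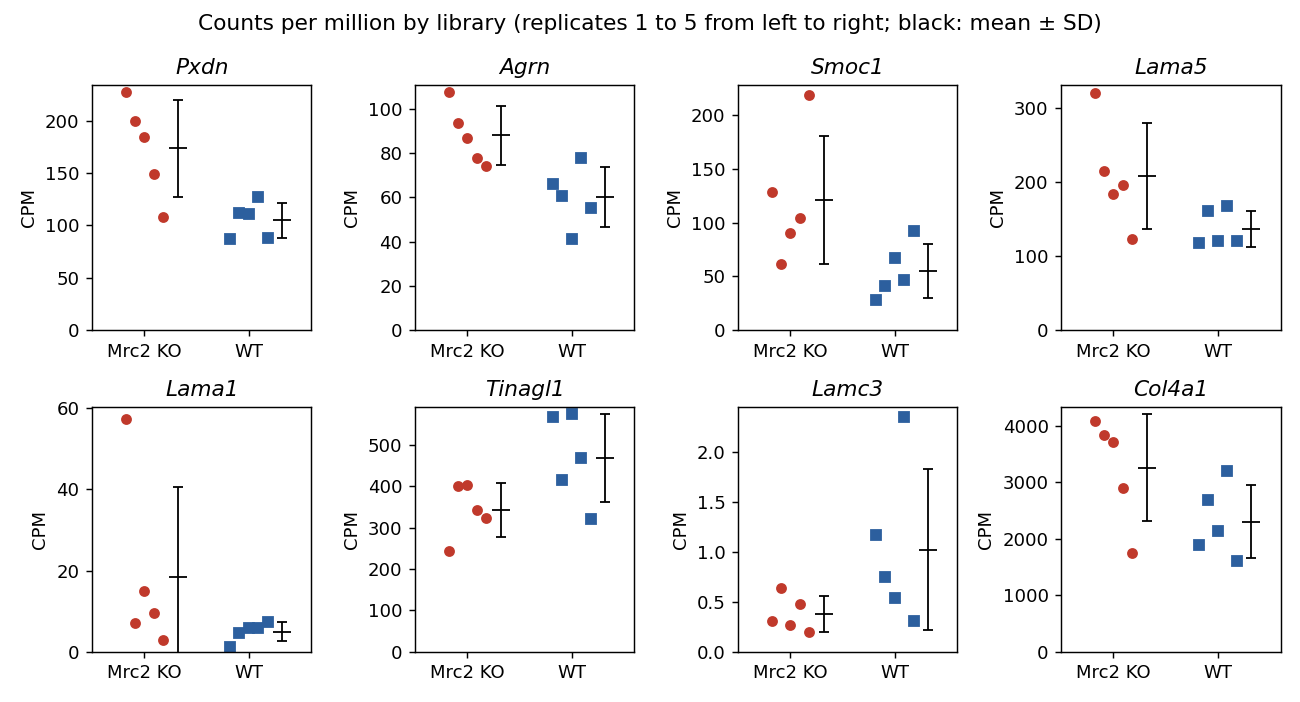
CPM per library of 8 members, with Mrc2 KO left of WT in each panel, 1 point per replicate, and the mean ± SD in black; axes start at 0, where the lower bar of Lama1 is clipped. Pxdn and Agrn lie above the WT mean in all 5 Mrc2 KO libraries, and the mean of Lama1 is set by 1 Mrc2 KO library at 57.3 CPM.

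Dag1, which encodes the laminin receptor dystroglycan, was at 431 ± 123 CPM in Mrc2 KO and 311 ± 75.9 CPM in WT (SD, n = 5 each; log2 fold change 0.47, standard error 0.23, adjusted p = 0.404 by edgeR). Smoc1 (ENSMUSG00000021136, chr12:81026808-81186414, plus strand), a calcium-binding matricellular protein, differed from the rest in its pattern over libraries. It was at 128, 61.8, 90.4, 104 and 219 CPM in Mrc2 KO and 27.8, 41.2, 67.3, 46.8 and 92.3 CPM in WT, so that replicate 5 was the highest of the Mrc2 KO libraries and also of the WT libraries. All 5 Mrc2 KO libraries lay above the WT mean, and WT replicates 3 and 5 reached into their range. The log2 fold change was 1.13 (standard error 0.36, 95% interval 0.34 to 1.93, adjusted p = 0.298 by edgeR), and 0.81 without Mrc2 KO replicate 5. Smoc2, its relative, was rare, with 5 to 65 counts per library and a log2 fold change of 0.88 (standard error 0.58, adjusted p = 0.497 by edgeR), which was 1.41 without WT replicate 4.

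Tinagl1 (ENSMUSG00000028776, chr4:130164454-130175122, minus strand), a matricellular protein related to the tubulointerstitial nephritis antigen of kidney, was the abundant member with lower levels in Mrc2 KO. It was at 243, 401, 405, 344 and 323 CPM in Mrc2 KO and 568.3, 417, 575, 469 and 322 CPM in WT. All Mrc2 KO libraries lay below the WT mean and below 4 of the 5 WT libraries, and WT replicate 5 lay inside their range. Its log2 fold change was -0.45 (standard error 0.19, 95% interval -0.86 to -0.05, adjusted p = 0.352 by edgeR). All 6 mesothelial markers also lay below 0, where 48.4% of all genes lay above 0, with a median log2 fold change of -0.80. Their values ran from -1.54 for Msln to -0.13 for Lrrn4. Msln was the 1 marker with an unadjusted p under 0.05, against 6.1% of all genes with lower levels in Mrc2 KO. The part of the mesothelial markers in the value of Tinagl1 was not tested.

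The proteins of the Fraser complex, which hold embryonic epithelia to the dermis, were barely detected. Fras1 had 1 to 25 counts per library (log2 fold change -0.47, standard error 0.54, adjusted p = 0.689 by edgeR), with values from -0.74 without Mrc2 KO replicate 2 to -0.20 without Mrc2 KO replicate 5, -0.22 without WT replicate 4 and -0.79 with the length trend removed. Frem1 and Frem2 had 1 to 10 and 0 to 9 counts and were not tested. Hmcn1, the long hemicentin of epithelial junctions, had 2 to 31 counts (log2 fold change 0.67, standard error 0.60, adjusted p = 0.606 by edgeR), and its value was 0.17 without Mrc2 KO replicate 4, 0.44 without WT replicate 5 and 0.37 with the length trend removed. The plot of fold changes shows their wide errors beside those of the abundant chains.

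**Figure D5:**
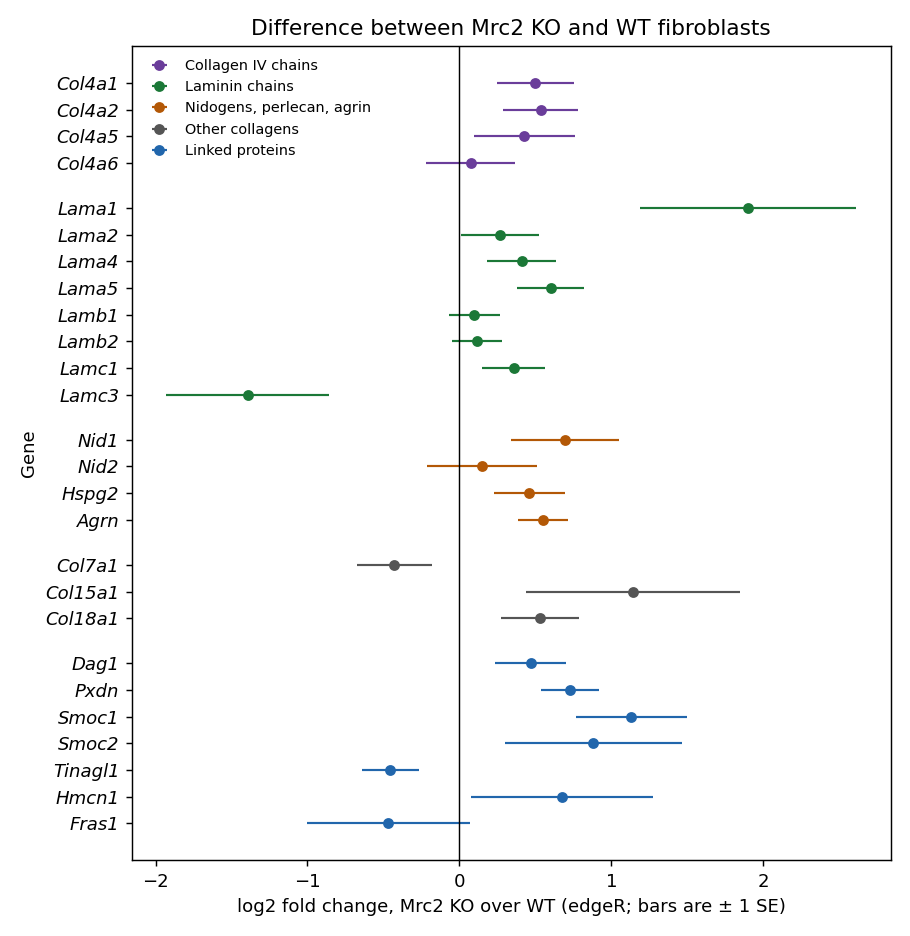
Log2 fold change of Mrc2 KO over WT from edgeR for the 26 tested members, grouped by role, with bars of 1 SE. Values lie right of 0 for 22 members, and Lamc3, Col7a1, Tinagl1 and Fras1 lie left of it.

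A list of receptors of laminin and collagen IV also held partners of dystroglycan that are not receptors, such as sarcoglycan genes, Utrn and Dmd. All 16 genes were tested, and 12 lay above 0 on the log2 scale (48.4% of all genes did), with a median of 0.26. The 4 below were Itga3, Itga7 and Itgb4, which encode receptor chains, and the sarcoglycan gene Sgce. EdgeR called 0. Before adjustment 4 had a p under 0.05, all higher in Mrc2 KO, against 7.19% of all genes. Of these only Itga1 encodes a receptor chain, and Utrn, Sgcd and Sspn encode partners of dystroglycan. Itga1, the alpha chain of a collagen IV binding integrin, had 75.8 ± 25.4 CPM in Mrc2 KO and 42.2 ± 16.0 CPM in WT (log2 fold change 0.85, standard error 0.28, adjusted p = 0.31 by edgeR). Utrn, which ties dystroglycan to actin, had 0.73 (standard error 0.25, adjusted p = 0.319 by edgeR), and the sarcoglycan gene Sgcd 0.63 (standard error 0.23, adjusted p = 0.335 by edgeR). For the glycosyltransferases that let dystroglycan bind laminin the signs were even. Of 12 genes 6 lay above and 6 below 0, with a median of 0.01, 0 calls and 1 unadjusted p under 0.05. Of all genes 6.1% had such a p with lower levels in Mrc2 KO. The 1 gene here was Pomgnt2, at 10.8 ± 0.894 CPM in Mrc2 KO and 13.7 ± 2.36 CPM in WT (edgeR adjusted p = 0.357). The next by p were B3galnt2 (0.30 on the log2 scale) and Rxylt1 (-0.17).

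Genes for collagen folding, export and cross-linking formed another list. Of 13 genes 12 were tested, and 11 of these lay above 0, against 48.4% of all genes, with a median of 0.10. EdgeR called 0 of them, where it called 0.0139% of all genes, and 3 had an unadjusted p under 0.05 with higher levels in Mrc2 KO, against 7.19%. Plod2, a lysyl hydroxylase, had 407 ± 142 CPM in Mrc2 KO and 261 ± 53.0 CPM in WT (log2 fold change 0.64, standard error 0.27, adjusted p = 0.355 by edgeR). Plod1, another lysyl hydroxylase, had 0.28 and the collagen chaperone Serpinh1 0.36 (edgeR adjusted p of 0.356 and 0.359). Among 14 other basement membrane linked genes 10 were tested, 6 above 0 and 4 below, with a median of 0.14, 0 calls by edgeR and 2 by DESeq2, which called 1.69% of all genes. Npnt, a ligand of integrin alpha 8, was the 1 gene of these lists whose groups did not overlap, at 142 ± 23.7 CPM in Mrc2 KO and 68.9 ± 14.99 CPM in WT (SD, n = 5 each, edgeR adjusted p = 0.141). Over all genes 2.05% had no overlap, so 1 gene in these 4 lists was near the background. Hmcn2, the other hemicentin, had 3.04 ± 0.725 CPM in Mrc2 KO and 6.46 ± 2.15 CPM in WT (log2 fold change -1.08, standard error 0.26, adjusted p = 0.231 by edgeR). Fbln1, a fibulin that binds nidogen and laminin, had a log2 fold change of 0.80 (standard error 0.32, adjusted p = 0.348 by edgeR). Frem3 was at 0 counts in every library.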

How the data were processed

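Each column of the deposited matrix gives unnormalized counts of reads for 1 library, by Ensembl gene. Tools listed without roles in the submitters' processing notes are STAR 2.5, HTSeq 0.6.1 and DESeq2 2, with the build mm10; no source used here gives the annotation release or the strand setting. Columns were matched to samples by library name and groups taken from the titles. The members and lists were chosen with earlier results of these data known. Low-count genes were removed with filterByExpr, leaving 14360 of 28582 genes with a count. The main test was edgeR 4.0.16 (quasi-likelihood F test, TMM, R 4.3.3) without covariate, with Benjamini-Hochberg adjustment over all tested genes and a threshold of 0.05. SEs are the absolute log2 fold change over the square root of F, and 95% intervals use the fit's total degrees of freedom. CPM used TMM-scaled library sizes, log2 CPM a prior count of 2, and RPKM the deposited gene lengths. Ratios used a prior count of 0.5 and an exact two-sided permutation of all 252 splits, adjusted over 6 ratios. The edgeR and permutation code was tested on simulated data. Rxylt1 was matched by gene ID. Values for every library are given for members with an unadjusted p under 0.05 or no overlap between groups and for the 6 highest in RPKM, with up to 3 genes of smallest p per other list; Col15a1 was added after its values were seen. No 2 libraries agreed within sampling noise (lowest chi-square per degree of freedom 17.5). The titles do not say whether replicate numbers pair the samples, and the main test did not pair them. Alternatives were other size factors, filters, DESeq2 1.42.0, limma-voom (limma 3.58.1), a replicate block, a gene-length offset (loess, span 0.5) and each library left out. The length offset without Mrc2 KO replicate 5 was added after the data were seen. Depth floors (3 counts) cover counting error only.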

Additional observations from a re-analysis of the deposited data

Results flagged for a closer look

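Of 64 groups of 5 values checked (26 members and 6 ratios in each genotype), 9 held a library set apart from the other 4 of its group by a gap large against the group's range. Chance marks about 1 in 20 groups, and libraries share many genes, so the marks are not independent. Mrc2 KO replicate 5 was low for Col4a5 (85.0 CPM, others 235 to 289), Col4a6 (14.1 CPM, others 32.2 to 36.3), Lama2 (20.6 CPM, others 47.0 to 55.0) and Nid1 (309.5 CPM, others 987 to 1188). Mrc2 KO replicate 1 was high for Col15a1 (92.5 CPM, others 24.0 to 36.8), Lama1 (57.3 CPM, others 2.79 to 15.1) and Lamb2 (341 CPM, others 196 to 209). Col7a1 was low in Mrc2 KO replicate 3 (7.90 CPM, others 19.9 to 22.7). In WT, Col15a1 was high in replicate 5 (64.1 CPM, others 3.73 to 10.4).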

How the results depend on the processing

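The count of genes called over all genes moved most. It was 2 in the fit described above, 243 with DESeq2, 1 with limma-voom, 0 with the replicate block, 1 with the gene-length trend removed and, in an alternative added after the data were seen, 34 with that trend removed and Mrc2 KO replicate 5 left out. Leaving out 1 library gave 1 to 203 calls, the highest without Mrc2 KO replicate 5. Members called numbered 1 with DESeq2 (Pxdn) and 0 to 1 when 1 library was left out, again Pxdn without Mrc2 KO replicate 5. Members with a log2 fold change above 0 numbered 19 to 22 of the tested members when 1 library was left out, and their median log2 fold change ranged from 0.35 (without WT replicate 5) to 0.61 (without Mrc2 KO replicate 5). With the replicate block 22 members lay above 0, the median was 0.45 and 0 members were called. The titles do not say whether replicate numbers pair the samples. Deviations of same-numbered libraries correlated at -0.24 to 0.38, and 1 of 5 correlated best with its own number. Replicate 5 had the lowest member score in both groups (-0.54 in Mrc2 KO and -0.49 in WT). These 5 correlations are too few to decide whether the numbers pair the samples. In 491 refits of single members over 19 settings, 480 kept the sign and the side of the threshold, where 1 of these, Col15a1 with DESeq2, had a value but no p, and 21 of 26 members kept their sign in all. With the length trend removed the sign turned for Col4a6 (-0.064), Lama2 (-0.034) and Lamb1 (-0.073), and for Lamb1 also with Mrc2 KO replicate 5 left out as well (-0.048). Leaving out 1 library turned the sign of Col4a6 (-0.096 to 0.25), Lamb1 (-0.016 to 0.19), Lamb2 (-0.075 to 0.17) and Nid2 (-0.034 to 0.55). Log2 ratio differences, Mrc2 KO minus WT, ranged over the libraries left out from -0.17 to 0.033 for Col4a5 to Col4a1, from 0.0080 to 0.041 for Col4a2 to Col4a1, from 0.088 to 0.36 for Lama4 to Lama2, from -0.55 to -0.16 for Nid2 to Nid1, from -0.16 to 0.089 for Lamb2 to Lamb1 and from -1.77 to -0.86 for Col18a1 to Col15a1, whose exact permutation p was 0.00794 without WT replicate 5. The causes were not tested. Depth limits Lamc3, Fras1, Hmcn1, Smoc2 and the 6 untested members, with few counts per library.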
